A study of Sus scrofa domesticus with 4 samples.

Results

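The genes described here are 10 that encode proteins of steroid hormone synthesis and steroid conversion: TSPO, FDX1, FDXR, POR, HSD17B4, HSD17B7, HSD17B8, AKR1CL1, HSD11B1 and CYP19A1. They were found by matching the RefSeq accession of every non-control probe to a gene symbol, which gave 26 probes of the 43603 on the array, and 10 genes of the 3029 that could be named in this way. The number of probes per gene ran from 1 (TSPO, FDXR, HSD17B7) to 6 (HSD11B1).

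The study asked what orexin B does to transcripts of the endometrium, the inner layer of the uterus, using 4 microarrays with 2 colours each and porcine tissue. Orexin B (OXB) is a neuropeptide best known from the hypothalamus, where it acts in appetite and wakefulness. Tissue came from 4 gilts (Large White x Polish Landrace) aged 7 to 8 months and weighing 120 to 130 kg, all pregnant, at days 15 to 16 of gestation. Slices of 100 mg were kept in culture medium, rested for 2 h and then incubated for 24 h with 10 nM OXB or with nothing added. Every array carried untreated RNA in one dye and treated RNA in the other. By the dye labels, Cy5 marked the treated RNA of arrays 1 and 3, and Cy3 that of arrays 2 and 4. All samples are thus cultured explants of pregnant uterus, and fresh tissue was not compared here. The labels describe duplicate cultures in 4 experiments but do not tie an animal to an array. The p-values thus treat the 4 arrays as units, and the spread of each probe is moderated by that of the other probes.

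Steroid synthesis starts when cholesterol enters the mitochondrion, where side-chain cleavage makes pregnenolone. Later steps in mitochondria and endoplasmic reticulum turn it into progesterone, androgens and oestrogens, and dehydrogenases and reductases then switch steroids between active and less active forms. In the pig at this stage the corpora lutea supply progesterone and the conceptuses release oestrogens that act on the endometrium, which itself holds enzymes that convert both kinds of steroid.

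Detection differed between the dyes: 46.8% to 86.7% of probes per array stood well above background in Cy5, and 27.8% to 36.2% in Cy3. These shares count a detection flag set for each channel and do not measure signal. The dimmer CYP19A1 probe on array 1 had a signal of 463 in Cy3, not well above background. In Cy5 it had 273, which was well above background. No spot was saturated. Array 2 had the lowest Cy5 share and was scanned on another day than the other 3 arrays. Of all probes, 13783 were bright enough to be tested, meaning that at least 1 of the conditions exceeded background clearly on every array. The limma fit gave each probe a ratio of treated over untreated RNA and a dye term, which is the part of Cy5 over Cy3 that does not turn with the treatment. Both are log2 values. No tested probe passed an adjusted p of 0.05 for OXB (0% called), and 495 probes, 3.59%, passed at an unadjusted p. For the dye term 0% passed after adjustment, while 14.1% passed at an unadjusted p, most of them with Cy3 higher (9.43% of tested probes).

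Of the 26 member probes, 19 were tested, covering all 10 genes, and 17 were well above background in all 8 channels, against 25.6% of all probes. Probes that could be named were bright more often: 3637 of 6700 were tested, against 31.6% of all probes. None of the 19 tested member probes passed the unadjusted threshold for OXB, against the 3.59% of all tested probes. Their ratios lay below 0 in 10 and above 0 in 9, with a median of -0.04, and the median of all tested probes was 0.02. With each gene represented by its brightest tested probe, 7 genes lay below 0 and 3 above. These 10 ratios ran from -0.28 to 0.18 with a median of -0.12, and the medians on arrays 1 to 4 were 0.08, -0.25, -0.07 and 0.12. No member probe had the same sign of ratio on all 4 arrays, which 7.30% of all tested probes had. The adjusted p was 0.999 for every member probe, so no OXB effect was detectable in these genes with 4 arrays. In bulk tissue of this kind, fewer cells of a type and less RNA per cell cannot be told apart.

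**Figure D1:**
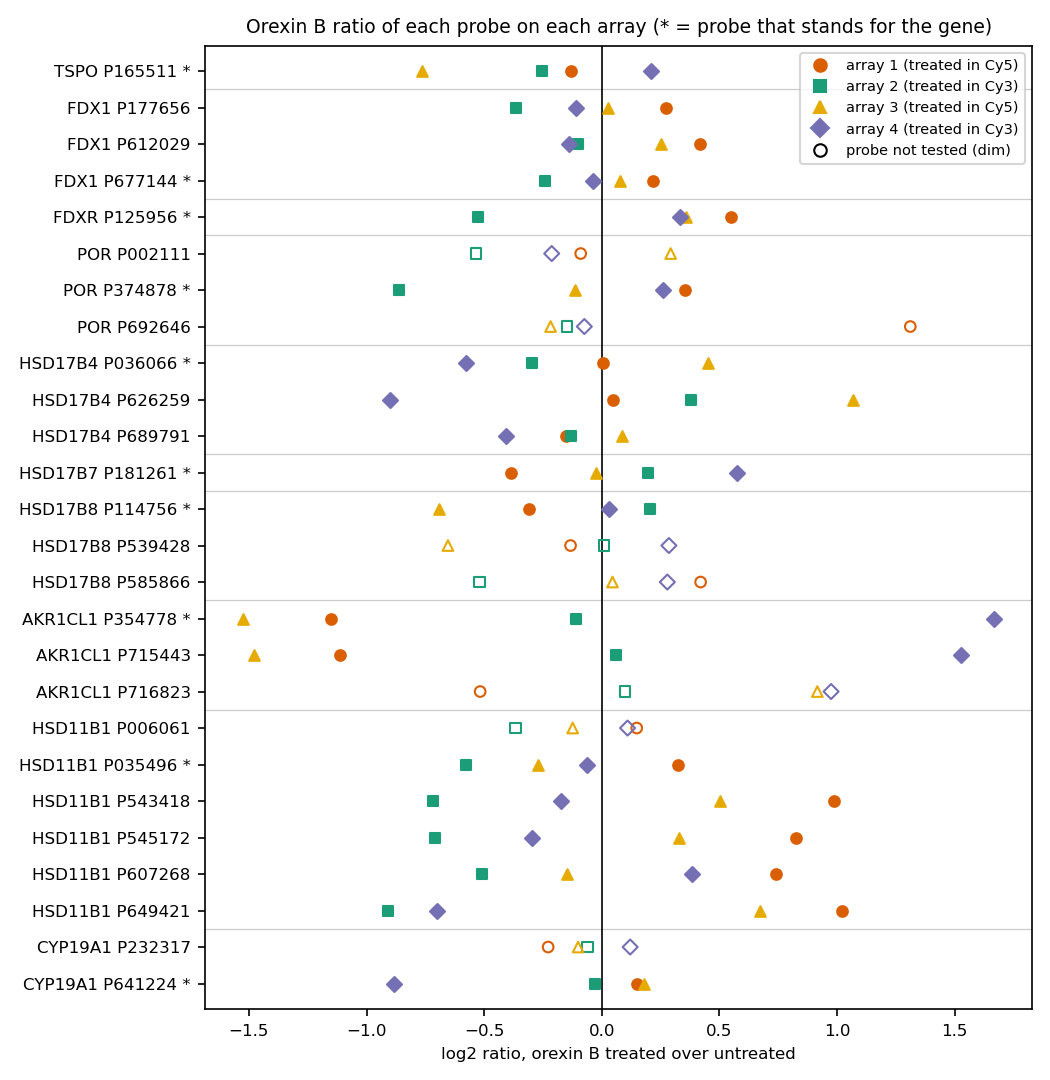
Each point is the log2 ratio of orexin B treated over untreated RNA for 1 probe on 1 array, after normalisation. Rows are the 26 probes of the 10 genes, open symbols are probes too dim to test, and the asterisk marks the probe that stands for its gene. The 2 tested AKR1CL1 probes spread widest, from -1.53 to 1.67, and in every tested row at least 1 array lies on the other side of 0.

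TSPO is an outer mitochondrial membrane protein that binds cholesterol and benzodiazepine-type drugs. Its single probe was well above background in every channel. The level in untreated RNA, given as log2 normalised intensity, was 14.35, 14.20, 13.93 and 13.85 on arrays 1 to 4, a mean of 14.08 ± 0.23 (SD, n = 4). Treated RNA gave 14.22, 13.94, 13.16 and 14.06. Treated RNA was lower on 3 arrays and higher on array 4, and the ranges of both groups overlapped. The ratio was -0.23 ± 0.20 (SE), with a 95% interval from -0.70 to 0.23 and an unadjusted limma p of 0.273. Intensities of different probes depend on the probe as well as on the RNA, so levels are compared here within a probe only.

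FDX1 and FDXR form the electron chain of mitochondrial steroid enzymes: FDXR, a reductase, takes electrons from NADPH, and FDX1, the small iron-sulphur protein ferredoxin, carries them to the P450. The brightest of the 3 FDX1 probes read 12.74, 12.14, 11.89 and 11.98 in untreated RNA (mean 12.19 ± 0.38, SD, n = 4). In treated RNA it read 12.96, 11.90, 11.97 and 11.95. Both conditions covered almost the same range, and the ratio was 0.00 ± 0.17 (95% interval -0.40 to 0.41). The other FDX1 probes gave ratios of -0.04 and 0.11, so the 3 probes differed among themselves by less than the standard error of any of them. All 3 were higher in treated RNA on arrays 1 and 3 and lower on arrays 2 and 4, the pattern of a dye term, which was 0.14 to 0.23. FDXR, with 1 probe, read 10.17, 10.57, 9.88 and 9.66 untreated and 10.72, 10.05, 10.24 and 9.99 treated. Its ratio of 0.18 ± 0.20 (95% interval -0.30 to 0.66) was the highest of the 10 genes, positive on 3 arrays and -0.53 on array 2.

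POR, the cytochrome P450 oxidoreductase, hands electrons to the P450 enzymes of the endoplasmic reticulum, aromatase among them. Only 1 of its 3 probes was tested; it read 10.81, 10.80, 10.31 and 10.29 in untreated RNA and 11.16, 9.94, 10.19 and 10.55 in treated RNA. Treated values were higher on arrays 1 and 4 and lower on arrays 2 and 3, with a ratio of -0.09 ± 0.23 (95% interval -0.64 to 0.46). The other 2 POR probes were well above background in all 4 Cy5 channels and in no Cy3 channel, which leaves each condition measured on 2 arrays. One probe of HSD11B1 had the same detection, and 1 of CYP19A1 was seen in 3 Cy5 channels and no Cy3 channel. Such a split, with 3 or 4 Cy5 channels and no Cy3 channel, was found in 38.9% of all probes.

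The 17beta-hydroxysteroid dehydrogenases interconvert oestradiol and oestrone, and each of these 3 has a further role. HSD17B4, a peroxisomal enzyme that oxidises oestradiol and takes part in fatty acid breakdown, had 3 tested probes with untreated means of 11.04 ± 0.46, 10.71 ± 0.46 and 10.86 ± 0.25 (SD, n = 4). On arrays 1 to 4 the ratios of its representative probe were 0.01, -0.30, 0.45 and -0.58. The second probe gave 0.05, 0.38, 1.07 and -0.90, and the third -0.15, -0.13, 0.09 and -0.41. All 3 were highest on array 3 and lowest on array 4, yet their fitted ratios differed in sign (-0.10 ± 0.18, 0.15 ± 0.27 and -0.15 ± 0.18). None of these ratios was larger than its standard error.

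HSD17B7 reduces oestrone to oestradiol and also works in cholesterol synthesis. Its single probe read 13.33, 13.03, 13.07 and 11.91 in untreated RNA, a mean of 12.83 ± 0.63 (SD, n = 4), and 12.94, 13.23, 13.04 and 12.48 in treated RNA. Both conditions were lowest on array 4, so the change between arrays was larger than the change with OXB. The ratio was 0.09 ± 0.18 (95% interval -0.34 to 0.52). HSD17B8, which oxidises oestradiol and also belongs to mitochondrial fatty acid synthesis, had 1 tested probe of 3. That probe read 10.50, 9.50, 10.09 and 10.57 untreated and 10.19, 9.71, 9.40 and 10.60 treated, a ratio of -0.19 ± 0.18 (95% interval -0.61 to 0.23). The other 2 HSD17B8 probes reached all 4 Cy5 channels but only 2 and 1 of the Cy3 channels.

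AKR1CL1, a porcine member of the aldo-keto reductase 1C group, whose enzymes reduce ketosteroids and some prostaglandins, had the widest spread between arrays of all tested member probes, both in untreated level and in ratio. The brightest of its 3 probes read 11.72, 9.54, 12.01 and 11.13 in untreated RNA, a mean of 11.10 ± 1.10 (SD, n = 4). In treated RNA it read 10.57, 9.43, 10.48 and 12.80, a mean of 10.82 ± 1.42. Array 2 was lowest in both conditions, and the highest untreated array stood 5.53-fold above the lowest. Only 1.85% of all tested probes had a larger SD of the untreated level. On arrays 1 to 4 the ratio of treated over untreated RNA was -1.15, -0.11, -1.53 and 1.67, so treated RNA was well below untreated on the 2 arrays where it carried Cy5 and well above it on array 4, where it carried Cy3. The fitted ratio was -0.28 ± 0.29 (95% interval -0.97 to 0.41, unadjusted limma p 0.372).

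Read by dye instead of by treatment, the same probe had Cy5 over Cy3 values of -1.15, 0.11, -1.53 and -1.67. The dye term was -1.06 ± 0.29 (95% interval -1.75 to -0.36), which is 2.08-fold higher in Cy3, with an unadjusted limma p of 0.00858 and an adjusted p of 0.296. This standard error is moderated by the other probes and is smaller than the values of this probe alone would give. Leaving out an array moved the dye term between -1.504 (without array 2) and -0.61 (without array 4), and median centring to -0.20, where the median dye term of all tested probes was 0.75. The dye term did not pass after adjustment, and 0.472% of all tested probes had a lower one. The second tested AKR1CL1 probe gave ratios of -1.11, 0.06, -1.48 and 1.53, with a fitted ratio of -0.25 ± 0.26 and a dye term of -1.04 ± 0.26 (adjusted p 0.290), or -0.56 with median centring. The third probe was too dim to test and read -0.52, 0.10, 0.92 and 0.98. Its untreated RNA on array 3 was not well above background, so it cannot show whether the fall there repeats. Of the second probe, treated RNA on array 2 was not well above background, so its value of 0.06 there is not a clear measurement, and the probe was tested through its untreated values. Probe sequences were not used here, so whether the probes also bind other 1C reductases was not tested.

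The AKR1CL1 ratio moved with the processing. Before normalisation the signals of the brightest probe in untreated RNA were 1993, 550, 2312 and 2986.5 on arrays 1 to 4, and in treated RNA 2913, 538.5, 3165 and 5269.5. Treated signal was thus the higher on arrays 1, 3 and 4. The ratios on arrays 1 and 3 were negative after background correction and loess, which centres Cy5 over Cy3 along the range of intensity. With each array centred on its median in place of loess, the ratio was 0.08 while the median of all tested probes was 0.28. Without array 2, which leaves the 3 arrays scanned on one day, it was 0.16. The shared labelling text can also be read as putting treated RNA in Cy5 on every array. Treatment and dye then cannot be told apart, and the value is -1.06 (adjusted limma p 0.258). The authors' deposited log2 ratios are turned in sign on arrays 2 and 4, which follows the dye labels.

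Epithelial marker genes were mixed beside AKR1CL1, which was highest on array 4. Of 16 endometrial and epithelial markers, 10 were on the array, all 10 were tested, and 9 exceeded background clearly on every array in untreated RNA. Their ratios had medians of -0.52, -0.32, -0.12 and 0.26 on arrays 1 to 4, but only 5 of the 10 had their highest ratio on array 4, with 3 highest on array 1 and 2 on array 3. The summed intensity of the 10 genes ran from 247168 to 334230 in untreated and from 213340 to 281323 in treated RNA. CLDN3, a tight junction claudin, read -1.42, -0.28, -1.07 and 0.61, and CDH1, the epithelial cadherin, -0.60, -0.37, -0.58 and 1.09: both were lower in treated RNA on arrays 1 to 3 and higher on array 4. CLDN4 (-0.88, -0.86, -0.43 and 0.15) and EPCAM (-0.77, -0.65, -0.05 and 0.44) had the same signs, and the rest of the 10 did not. CLDN3, CDH1, CLDN4 and EPCAM were picked for that order after their values were seen. PGR, the progesterone receptor, read 1.02, -0.06, 0.16 and 0.16, and KRT8, a keratin, 0.71, -0.65, 0.08 and 1.26. The part of the epithelial share in the AKR1CL1 values was not tested.

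By the likeness of the Cy5 over Cy3 values on the 4 arrays, the 3 nearest of 1637 named genes to AKR1CL1 were RGS4, a regulator of G protein signalling, HMGA1, a chromatin protein, and CXCL2, a neutrophil chemokine. Their root mean square differences from it were 0.36, 0.48 and 0.52. All 3 were closest to 0 on array 2. On the other arrays RGS4 and CXCL2 read -0.81 or lower, whereas HMGA1 read -0.55 on array 1.

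**Figure D2:**
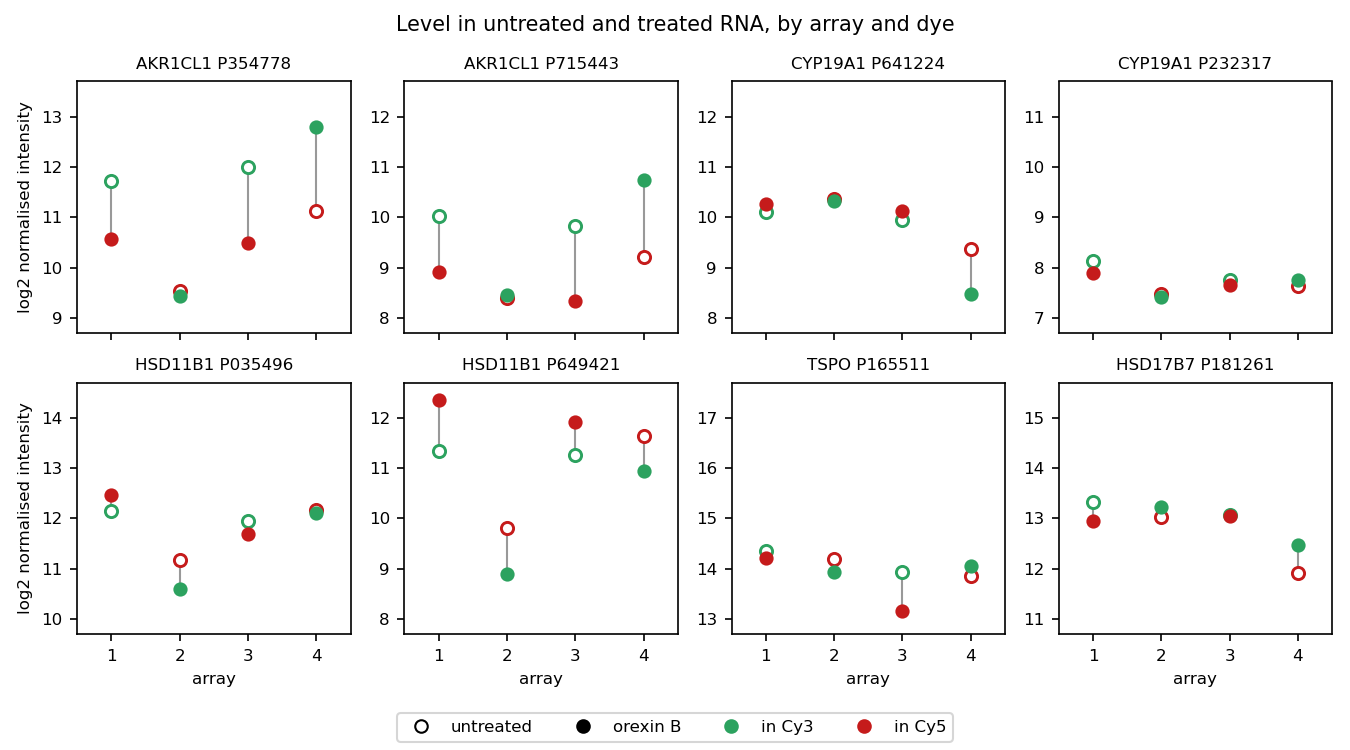
Log2 normalised intensity on each array of untreated (open) and orexin B treated RNA (filled), coloured by dye, for 8 probes of 5 genes. Each panel spans the same height on its own range. In AKR1CL1 the green Cy3 points lie above the red Cy5 points on arrays 1, 3 and 4. In HSD11B1 P649421 the red points lie above on all 4 arrays, and array 2 is low in both conditions.

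HSD11B1 reduces inactive cortisone to cortisol in the endoplasmic reticulum. It had 6 probes, of which 5 were tested. The probe with the highest signal read 12.15, 11.17, 11.96 and 12.17 in untreated RNA (mean 11.86 ± 0.47, SD, n = 4) and 12.47, 10.59, 11.69 and 12.11 in treated RNA. Array 2 was lowest in both, and the groups overlapped. The ratio was -0.15 ± 0.20 (95% interval -0.61 to 0.32). The other 4 tested probes gave ratios of 0.15, 0.04, 0.12 and 0.02, so the representative probe was the only one below 0, and the 95% intervals of all 5 included 0.

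The 5 HSD11B1 probes differed more in their dye terms, from 0.17 to 0.83. Probe P649421 read Cy5 above Cy3 on every array: treated over untreated was 1.02, -0.91, 0.67 and -0.70 as the dyes turned, its fitted ratio was 0.02 ± 0.18, and its dye term was 0.83 ± 0.18 (95% interval 0.41 to 1.24, unadjusted limma p 0.00221, adjusted p 0.290). Probes P543418 and P545172 had dye terms of 0.60 ± 0.19 and 0.54 ± 0.19, and the representative probe 0.17 ± 0.20. The mean of both channels of P649421 was 11.84, 9.36, 11.59 and 11.29 on arrays 1 to 4. Array 2 was thus far below the rest, and 0.619% of tested probes had a larger SD of this mean. All 5 tested HSD11B1 probes were lowest on array 2. Stromal markers, of which 4 of 8 were on the array and all 4 were tested, had median ratios of 0.69, 0.23, 0.85 and -0.44. Their summed intensity ran from 16530 to 43851 in untreated and from 18329 to 45367 in treated RNA, with array 2 lowest in both conditions. The part of stroma in the HSD11B1 levels was not tested.

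CYP19A1 encodes aromatase, the P450 that turns androgens into oestrogens; the pig has several aromatase genes. The brighter of its 2 probes exceeded background clearly on 4 arrays in untreated RNA and on 3 in treated RNA. Untreated RNA read 10.10, 10.36, 9.95 and 9.36, a mean of 9.95 ± 0.42 (SD, n = 4), and treated RNA 10.25, 10.33, 10.13 and 8.48. Values of both conditions lay within 0.18 of each other on arrays 1 to 3, and array 4 gave a ratio of -0.88. On that array the treated RNA, in Cy3, was not well above background, so this lowest ratio rests on a channel that was not clearly measured, and the probe was tested through its untreated values. The fitted ratio was -0.15 ± 0.20 (95% interval -0.63 to 0.33, unadjusted limma p 0.495), and without array 4 it was 0.07.

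Cy5 over Cy3 of this CYP19A1 probe was 0.15, 0.03, 0.18 and 0.88, above 0 on all 4 arrays. The dye term was 0.31 ± 0.20 (95% interval -0.17 to 0.79, unadjusted limma p 0.169), and 34.3% of tested probes had a larger one in size. Had all arrays carried treated RNA in Cy5, the ratio of 0.31 would equal that dye term. The second CYP19A1 probe was dim, with well measured values on 1 array untreated and 2 treated, and ratios of -0.23, -0.06, -0.10 and 0.12. On array 4 its treated RNA was not well above background, so it cannot show whether the fall there repeats. Of the related genes CYP19A2 and CYP19A3, the best probes were above background in 0 and 1 of the 8 channels. Whether the probes also bind transcripts of these near copies was not tested, since no probe sequences were used.

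Aromatase is also a conceptus gene. Of 12 trophoblast and conceptus markers, 10 were on the array and 6 were tested, CYP19A1 included. CDX2 was above background in no channel, and IFNG in 3 Cy5 and no Cy3 channels. The summed intensity of the 5 tested markers other than CYP19A1 ran from 6513 to 10986 in untreated and from 7428 to 9427 in treated RNA, and treated over untreated sums were 0.38, -0.22, 0.31 and -0.36 (log2) on arrays 1 to 4. This ratio of sums was lowest on array 4, as was the CYP19A1 ratio. The untreated sum was lowest on array 1, whereas untreated CYP19A1 was lowest on array 4. Single genes differed: 2 of the 5 had their lowest ratio on array 4 and 3 on array 2. TFAP2C, a trophoblast transcription factor, was above 0 on every array, at 2.14, 0.41, 1.43 and 0.60. IL1B (-0.09, -0.50, -0.35 and -0.90) and IL1B2 (-0.12, -0.90, -0.21 and -0.44) were below 0 on every array. GATA2 and HAND1 changed sign between arrays. The part of conceptus cells in the CYP19A1 values was not tested.

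The 3 genes nearest to CYP19A1 in Cy5 over Cy3 on the 4 arrays were SLC7A7, an amino acid transporter subunit, MLLT11, and TNFRSF1A, a receptor of tumour necrosis factor. Their root mean square differences of 0.12, 0.14 and 0.15 over 4 arrays were smaller than any found for AKR1CL1. These differences are not scaled to the size of the values, which reached -1.67 in AKR1CL1 and 0.88 in CYP19A1, so the 2 sets cannot be ranked by likeness. Each of the 3 nearest genes was highest in Cy5 over Cy3 on array 4, from 0.64 to 0.71.

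**Figure D3:**
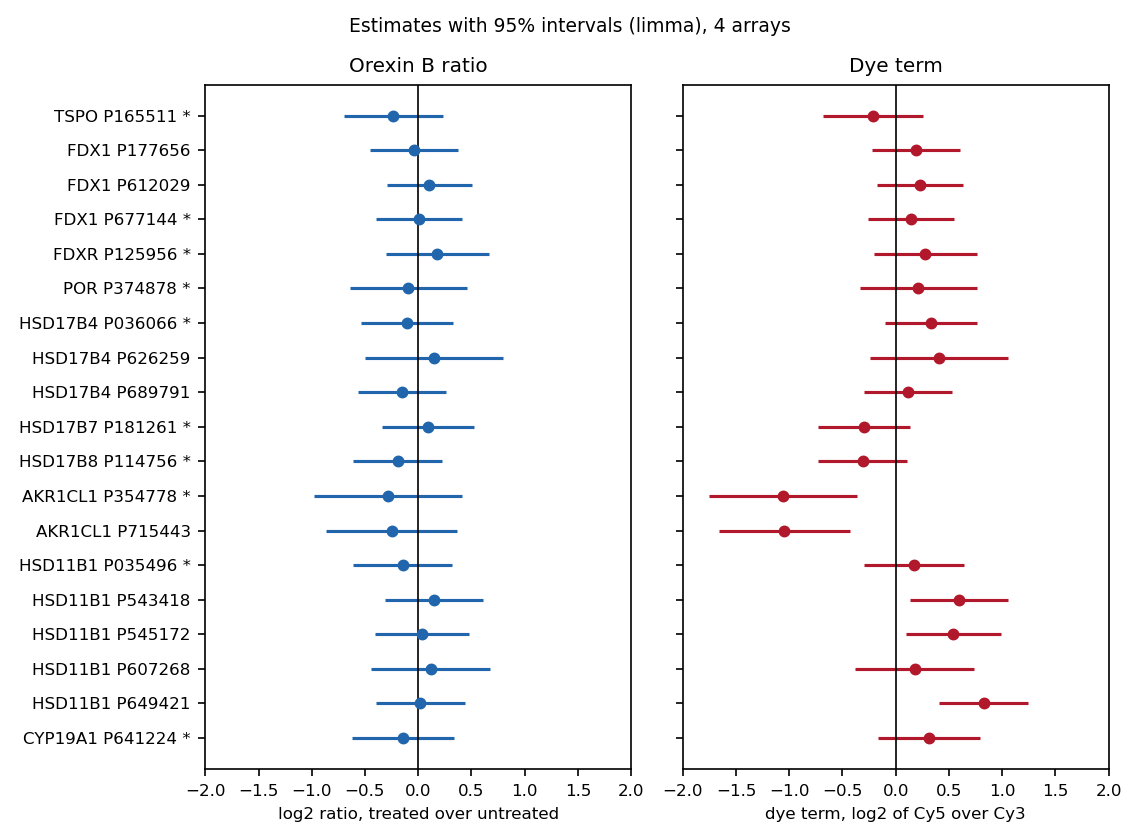
Fitted orexin B ratio (left) and dye term (right) of the 19 tested probes, in log2 units, with 95% intervals from limma over 4 arrays. Every interval on the left includes 0. On the right the intervals of both AKR1CL1 probes lie below 0, and those of 3 HSD11B1 probes lie above it.

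Over all members the dye term was larger in size than the OXB ratio in 17 of 19 tested probes (89.5%), against 64.1% of all tested probes. Cy5 over Cy3 kept its sign on all 4 arrays in 11 of 19 (57.9%), against 26.4% overall. At an unadjusted p under 0.05, 5 of 19 member probes passed for the dye term, against 14.1% of all: the 2 AKR1CL1 probes with Cy3 higher (9.43% of all tested probes), and HSD11B1 P543418, P545172 and P649421 with Cy5 higher. These 5 probes come from 2 genes, and probes of 1 gene share its transcript. With 1 representative probe per gene, 1 of 10 passed for the dye term at an unadjusted p. Of these 10, 5 kept the sign of Cy5 over Cy3 and 9 had the larger dye term. Of the 19 dye terms, 5 were below 0, from TSPO, HSD17B7, HSD17B8 and AKR1CL1, and 14 above. Over all tested probes 55.5% of dye terms were below 0, against 26.3% of the 19 member probes and 40% of the 10 representative probes. None of the 19 passed after adjustment with loess, the smallest adjusted limma p being 0.290. Median centring sets each array by the median of its spots, dim ones included, and does not level Cy5 over Cy3 along the range of intensity. The median dye term of the tested probes was then 0.75. With this setting 16 of the 19 passed, the exceptions being HSD17B8 and both AKR1CL1 probes.

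**Figure D4:**
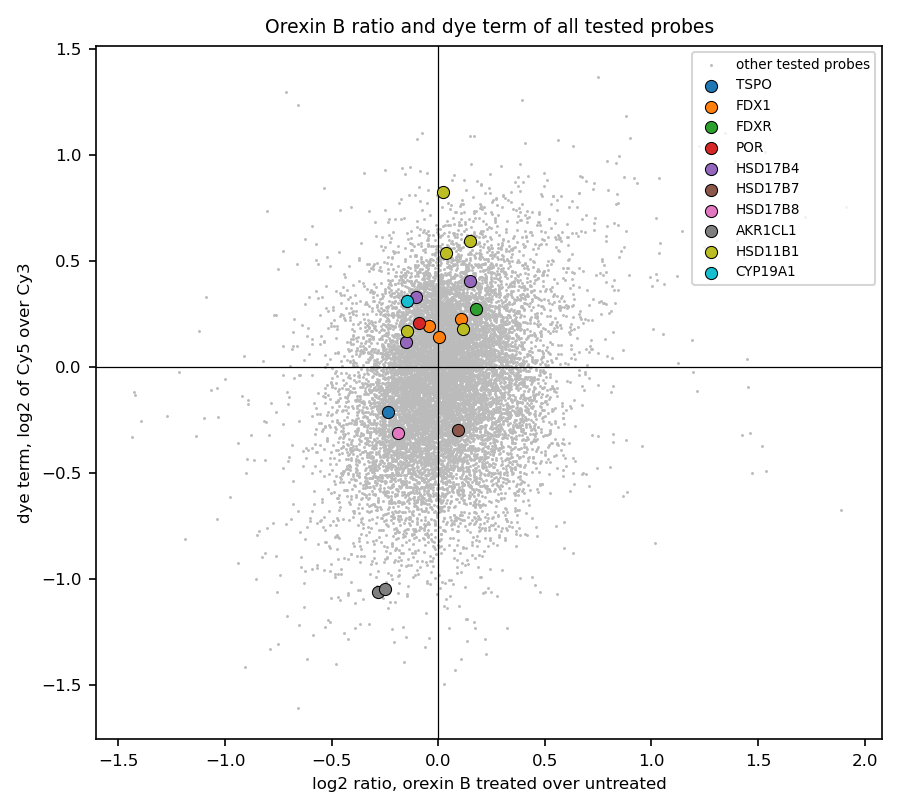
Dye term against orexin B ratio, both in log2 units, for all tested probes (grey) and the 19 tested member probes (coloured by gene). Members lie between -0.28 and 0.18 on the ratio axis and spread from -1.06 to 0.83 on the dye axis, with both AKR1CL1 probes at the lower edge of the cloud and HSD11B1 P649421 at the upper edge.

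The enzymes that begin steroid synthesis were at the detection limit. The best probes of STAR, which brings cholesterol to the inner mitochondrial membrane, CYP11A1, the side-chain cleavage enzyme, and CYP17A1, which makes androgens, were each above background in 3 Cy5 and no Cy3 channels. The same was found for HSD17B1 (oestrone to oestradiol), HSD11B2 (cortisol to cortisone) and SULT1E1, the oestrogen sulphotransferase. This split is common on the array: 30.9% of all probes had 3 Cy5 and 0 Cy3 channels above background. HSD3B1, which makes progesterone from pregnenolone, was above background in 4 Cy5 and no Cy3 channels, and HSD17B2 was not among the genes named here. With untreated RNA in Cy5 on 2 arrays only, the presence or absence of these transcripts could not be read at this signal. All 7 markers of steroidogenic gland cells were on the array, and none was tested, with 0 Cy3 channels above background in each. Of all probes, 31.6% were tested.

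Other genes of the pathway that were bright enough to test did not pass for OXB either. Of 72 listed, 38 were on the array and 17 were tested, 10 above 0 and 7 below, with a median of 0.07 beside 0.02 for all tested probes. None passed after adjustment, and 1 passed at an unadjusted p, ACBD3, a Golgi protein that binds TSPO. Its ratios were -1.27, 0.13, -1.10 and 0.05, a fit of -0.55 ± 0.17 (unadjusted limma p 0.0146, adjusted p 0.999), beside a dye term of -0.64. It was low in treated RNA only where that RNA carried Cy5. The next smallest p-values below 0 belonged to PGRMC2 (-0.26 ± 0.19) and the sterol carrier STARD4 (-0.13 ± 0.19). Above 0 they belonged to the lipoprotein receptor SCARB1 (0.32 ± 0.18), the aldo-keto reductase AKR1B1 (0.28 ± 0.28) and the lysosomal cholesterol carrier NPC2 (0.21 ± 0.27).

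By role, 9 tested genes of cholesterol supply and entry had a median of 0.07, with 5 above 0 and 4 below. The 3 tested dehydrogenases and reductases had 2 above and 1 below (median 0.10), and the 2 conjugating enzymes had values of 0.13 (UGT1A6) and 0.05 (SULT2A1). CYB5A, a haem protein that assists P450 enzymes, stood at -0.05 ± 0.18. Of the 21 genes on the array that were not tested, 14 were above background in 3 or 4 Cy5 channels and no Cy3 channel. Counted by probe, 38.9% of all probes had that split.

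**Figure D5:**
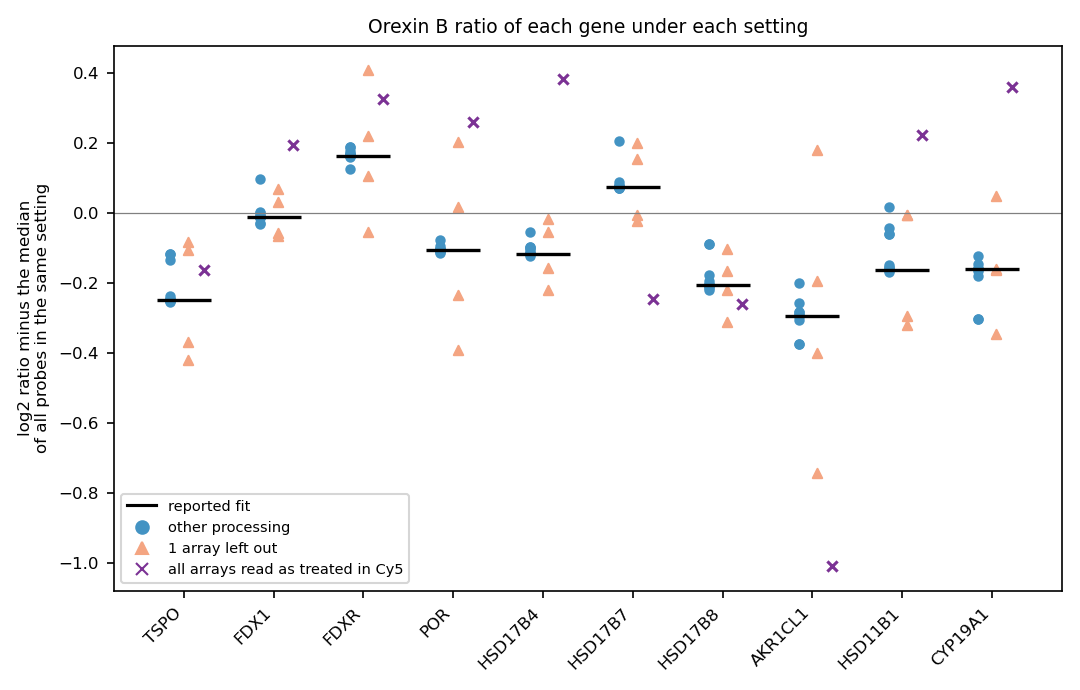
Log2 orexin B ratio of each gene minus the median of all probes under the same setting. Black bars are the reported fit, blue points other processing, orange triangles fits with 1 array left out, and purple crosses the reading of all arrays as treated in Cy5. Only TSPO and HSD17B8 stay below 0 in every setting shown. AKR1CL1 spans the widest range, from -1.01 to 0.18.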

How the data were processed

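The authors' scanner output was used, 1 deposited file per array, made with Agilent Feature Extraction 10.7.3.1 per the file headers. It holds median spot and local background intensity per dye, detection and outlier flags, and a log10 ratio that the scanner software had corrected for background and dye, all deposited by the authors. The authors' deposited value table holds log2 ratios that matched those log10 ratios of the tested probes once the sign was turned on arrays 2 and 4 (correlations 1.00 on all arrays), which is treated over untreated under the dye labels. Its centring is not given in the sources used here.

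From the intensities, limma 3.58.1 (R 4.3.3) was run with normexp background correction (offset 50), loess within arrays (span 0.3, control and outlier spots at weight 0) and averaging of repeated spots. The linear model held a treatment and a dye term (2 residual and 5.09 prior degrees of freedom, empirical Bayes), with Benjamini-Hochberg adjustment over all tested probes. Of these, 215 lacked a value on at least 1 array, and no member probe did. An exact sign-flip test over 4 arrays cannot go below 0.125. Levels are separate channels after loess and Aquantile. The script was tested on simulated data.

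All members are named with every probe, and the tested probe with the highest mean signal stands for a gene. Of the other pathway genes, 8 well-known enzymes and carriers and the 3 smallest p-values in each direction are named. Members, lists and rules were chosen with earlier results of these data known. Probes were named through RefSeq accessions (6700 of 43603). No sequences were used here. Alternatives covered background correction, normalisation, values used, filters, dye term, dye orientation, outlier spots, representative probe and leaving out each array.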

Additional observations from a re-analysis of the deposited data

How the results depend on the processing

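No setting brought a member's ratio past the threshold. Over the 10 genes, 93 of 109 ratios kept their sign under other settings and 29 of 40 when 1 array was left out. No probe was called for OXB in the 10 other settings, while leaving out an array gave 0 to 15 calls, 15 without array 2. The dye term had 6869 calls with median centring, where its median over all tested probes was 0.75 and 16 of the 19 member probes passed. With an array left out it had 0 to 6 calls (2 without array 2, 6 without array 4).

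Median centring moved the members' median to 0.19 and that of the other pathway genes to 0.39, against 0.28 for all tested probes. It turned TSPO (0.15), POR (0.20), HSD17B4 (0.18), HSD17B8 (0.059), AKR1CL1 (0.079), HSD11B1 (0.24) and CYP19A1 (0.16). All of these stayed below the median of all tested probes. The dye terms of HSD17B8 (0.38), TSPO (1.17) and HSD17B7 (0.91) turned as well. Reading all arrays as treated in Cy5 gave a members' median of 0.16, with POR at 0.21, HSD17B4 at 0.33, HSD17B7 at -0.30, HSD11B1 at 0.17 and CYP19A1 at 0.31. The mean of its probes put HSD11B1 at 0.035. FDX1 read -0.0036 with offset 10 and -0.034 with the scanner's ratio or the authors' deposited table. The scanner's ratio also turned the dye terms of TSPO (0.12) and FDX1 P677144 (-0.0079). Apart from the construction of the Cy5 reading, the causes were not tested.

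With an array left out, the members' median ranged from -0.17 to 0.02 and that of the other pathway genes from -0.05 to 0.14. Signs turned for FDX1 (-0.048 to 0.054; without array 1 or 4), FDXR (-0.036 to 0.39; 4), POR (-0.37 to 0.19; 2 or 3), HSD17B4 (-0.21 to 0.0085; 1), HSD17B7 (-0.0037 to 0.18; 3 or 4), AKR1CL1 (-0.73 to 0.16; 2), HSD11B1 (-0.30 to 0.00095; 3) and CYP19A1 (-0.36 to 0.068; 4). The dye terms of POR P374878 (-0.070 to 0.49; 2) and HSD11B1 P607268 (-0.044 to 0.40; 1 or 2) also turned. CYP19A1 was not tested when every channel had to be above background. The number of arrays limits precision: the narrowest interval of a member ratio still spanned about 0.4 on either side.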
